A study of Mus musculus with 12 samples.

Results

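This experiment asked which transcripts differed between mouse embryonic stem cells kept with leukaemia inhibitory factor (LIF) and the same cells given lithium as well. It comprised 6 of the 12 arrays of the series: 3 from cultures with LIF and 3 from cultures with LIF and lithium, chosen by their labelled treatment and paired by the replicate number in their titles. The cells were D3, a single established mouse embryonic stem cell line with no engineered allele named in the labels. Culture lasted 7 days, in medium with serum. LIF was given at 1000 units per ml, and the labels state the lithium concentration as 50 nM, whereas lithium salts are usually applied to cells at millimolar concentrations. The other 6 arrays came from LIF-free cultures, 3 without and 3 with the same lithium, and served here to estimate the spread and for comparison. The labels call the arrays biological replicates, and the design text speaks of independent experiments within each replicate without saying whether their RNA was pooled, so p-values measure only the spread among these arrays.

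LIF binds a receptor pair of LIFR and gp130 and activates the transcription factor STAT3, which helps to hold mouse embryonic stem cells in self-renewal. Lithium inhibits the kinases GSK3 alpha and GSK3 beta. GSK3 is part of the complex that marks beta-catenin for destruction, so an effective dose imitates Wnt signalling: beta-catenin builds up and acts with TCF and LEF factors on target genes such as Axin2. Lithium also inhibits a group of phosphatases that recycle inositol and break down bisphosphorylated nucleotides. No protein or kinase activity was measured, so the arrays do not show whether GSK3 was inhibited in these cultures.

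Lithium added to LIF cultures left no probe set past the threshold. Of 27022 probe sets tested, 0 (0%) reached an adjusted p of 0.05 in limma with Benjamini-Hochberg adjustment, and the smallest adjusted p was 0.363. At an unadjusted p under 0.05 there were 1567 probe sets (5.80%), 265 higher and 1302 lower with lithium. That unadjusted count rested on single arrays: it was 2987 and 2379 without LIF replicates 1 and 2, 960 without LIF replicate 3 and 742 without LIF plus lithium replicate 3, and 749 without the pairing by replicate. The same treatment in LIF-free cultures gave 0 calls (0%) and 824 probe sets at an unadjusted p under 0.05. For the interaction, which asks whether lithium acted differently with and without LIF, limma gave 0 calls (0%) and 1604 probe sets at that unadjusted level. In the same fit, LIF withdrawal without lithium called 5260 probe sets (19.5%), 2714 higher and 2546 lower. That comparison shares its LIF arrays with the lithium comparison and is quoted below only to give the size of each gene's own range.

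**Figure D1:**
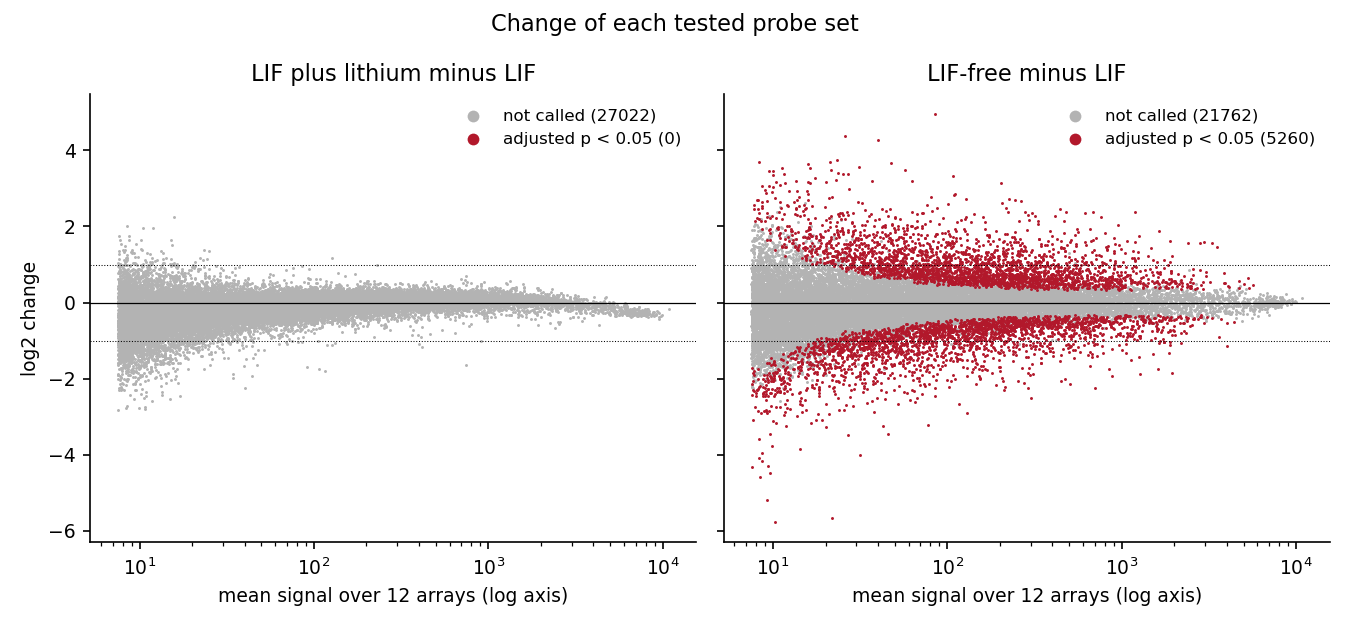
Log2 difference between LIF plus lithium and LIF (y axis) against mean brightness over all 12 arrays (x axis, signal on a log axis) for the 27022 tested probe sets on the left, and LIF-free against LIF on the right, with probe sets at an adjusted p under 0.05 in red and 2-fold dotted. With lithium 0 probe sets are red, dim ones lie mostly below 0 and bright ones close to it, while 5260 are red for LIF withdrawal.

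The size of effect that the arrays could exclude depended on brightness. Signal is the MAS5 intensity, scaled to a mean of about 100 per array. A gene is called brighter here when its mean was above a signal of 25.8 (the 60th percentile) and brightest above 326 (the 90th). Each gene is read from its brightest tested probe set. The margin is the distance from the estimated log2 change to either end of its 95% interval. Among 9732 brighter named genes the median margin was 0.37, a factor of 1.29, and among the 2771 brightest it was 0.28, a factor of 1.21. For 9164 of the 9732 brighter genes (94.2%) the whole interval lay within 2-fold of no change, and for 6160 (63.3%) within 1.5-fold. Of the 2771 brightest genes, 2760 (99.6%) had the interval inside 2-fold, 2470 (89.1%) inside 1.5-fold and 652 (23.5%) inside 1.25-fold. The median change still allowed was 1.42-fold for a brighter gene and 1.31-fold for one of the brightest. Dimmer genes were far less constrained, with a median margin of 1.04 (2.06-fold) and only 460 of 3005 (15.3%) inside 2-fold.

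Each of these intervals is for 1 gene. When all 27022 probe sets were covered at once by Bonferroni-adjusted intervals, the median margin of the brightest named genes was 1.03 (2.04-fold), and 556 of them (20.1%) lay inside 2-fold. For the brighter named genes the joint count was 614 (6.31%). An effect of 2-fold was therefore excluded for most bright genes taken singly, but for a minority when all were covered jointly. The limits are also those of the deposited scale: 9317 of the brighter named genes were inside 2-fold after quantile normalisation and 7371 (75.7%) with each array centred on its median, which moved the median of these genes by 0.37. The 1.5-fold limit depended far more on the scale. Inside it were 6160 brighter named genes on the deposited scale, 6236 after quantile normalisation and only 746 with arrays centred.

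The precision changed steadily along the brightness scale. In the dimmest of 10 equal groups of tested probe sets, at signals of 7.52 to 10.3, the median margin was 1.34 and 0.074% of intervals lay inside 2-fold. At signals of 34.8 to 55.7 the median margin was 0.53 and 82.8% were inside. In the brightest group, above a signal of 584, the median margin was 0.28 and 99.4% were inside. The median change moved along the same scale, from -0.40 in the dimmest group to 0.07 in the group at 259 to 583 and 0.03 in the brightest.

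**Figure D2:**
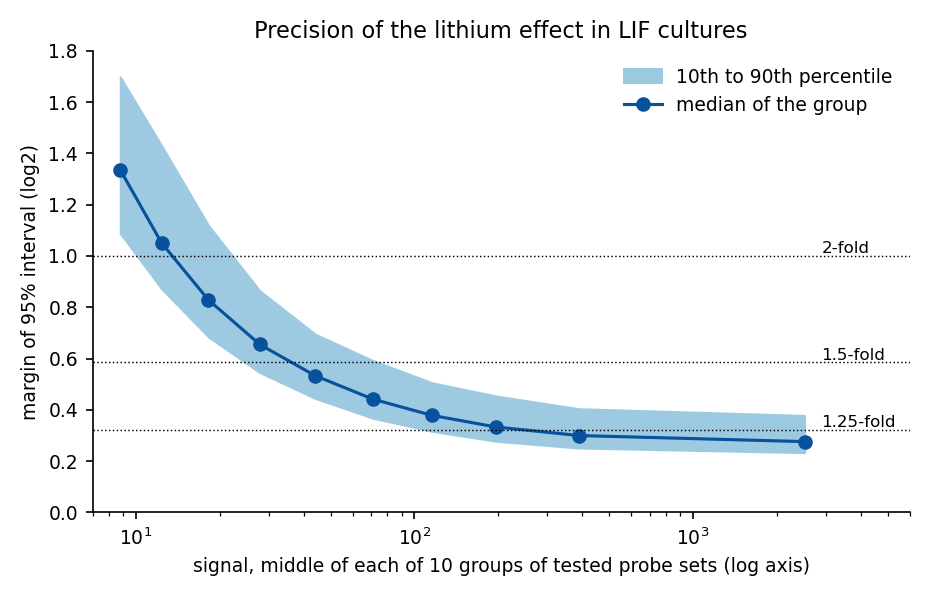
Margin of the 95% interval of the lithium effect in LIF cultures (y axis, log2) against signal (x axis, log axis), as the median and the 10th to 90th percentile of each of 10 groups of tested probe sets. The median margin shrinks from 1.34 on the log2 scale in the dimmest of 10 groups of tested probe sets to 0.28 in the brightest.

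The array medians moved with the direction of the differences. The median signal over all probe sets was 17.5, 14.2 and 17.4 in LIF replicates 1, 2 and 3, and 16.03, 11.97 and 10.5 in LIF plus lithium replicates 1, 2 and 3. The LIF plus lithium array was thus the lower of each pair, and that of replicate 3 was the lowest of the 6. Among brighter probe sets the array medians were nearly level, from 6.96 to 7.03 on the log2 scale with LIF and from 6.90 to 6.99 with lithium added. Of the probe sets at an unadjusted p under 0.05, 83.1% were lower with lithium on the deposited scale, 54.0% after quantile normalisation and 5.92% with each array centred on its median. A general direction of the lithium effect therefore cannot be read from these arrays, and the part of the scaling in any single dim gene was not tested.

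The cultures were read as embryonic stem cells in both conditions. All 7 stem cell markers fixed for this check were bright, and their summed signal was 10082 to 15228 over the LIF arrays and 11083 to 13485 over the LIF plus lithium arrays. Of 6 feeder or fibroblast markers 1 was above the 60th percentile, with sums of 64.0 to 147 and 48.6 to 94.5. Highest of these 6 were Col1a2 and Thy1, with means of 35.1 and 27.9 with LIF and 27.1 and 19.9 with lithium added. Collagen Col1a1 and the proteoglycan Lum, the lowest with LIF, averaged 6.66 and 5.24 there and 5.21 and 4.47 with lithium added. Col3a1 and Postn lay between these pairs with LIF. Endoderm markers (3 of 4 above the percentile) summed to 139 to 396 and 148 to 343, neural markers (1 of 3) to 49.8 to 87.1 and 60.1 to 74.6, and blood and endothelial markers (1 of 4) to 99.0 to 206 and 122 to 196. Each of these ranges overlapped between the conditions. The blood and endothelial sum was mostly Pecam1, at 79.4, 133 and 175 with LIF. Without LIF or lithium Pecam1 was lower, at 27.0, 32.5 and 47.0. Cdh5, Ptprc and Tal1 averaged only 5.23, 6.90 and 9.57 with LIF. The RNA quality ratio of Gapdh probe sets at the 3' and 5' ends was 0.810 to 0.820 with LIF and 0.798 to 0.860 with lithium added.

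Pou5f1, the POU factor Oct4 that defines pluripotent cells, gave signals of 1371, 2139 and 3334 in LIF replicates 1 to 3 and of 1760, 2071 and 2415 in LIF plus lithium. The lithium values lay wholly within the range of the LIF values, which itself spanned more than the conditions differed. The log2 change was -0.05 (95% interval -0.37 to 0.27, adjusted p = 0.954 in limma), which on the deposited scale excluded a rise above 1.20-fold and a fall beyond 1.29-fold. The limit on a rise was 1.22-fold after quantile normalisation and 1.65-fold with arrays centred. LIF withdrawal, in contrast, lowered Pou5f1 by a log2 change of -1.44.

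The pluripotency list was bounded about as closely as brighter named genes in general, with a median margin of 0.39 against 0.37. Nanog, a homeobox factor of naive pluripotency, was at 1326, 1756 and 1762 with LIF and at 1352, 1895 and 1878 with lithium added. The LIF range contained the lowest lithium value, and the change was 0.08 (-0.27 to 0.43). Sox2, the partner of Oct4 on DNA, gave 2176, 2803 and 3321 against 2632, 2786 and 2823, a change of 0.01 (-0.34 to 0.36). Zfp42 (Rex1), a marker of naive cells, was nearly constant at 2916, 2854 and 2973 against 2879, 2983 and 2963, a change of 0.01 (-0.30 to 0.33). Klf4, a zinc finger factor that STAT3 induces, gave 1075, 1740 and 1778 against 1302, 1596 and 1947. The groups overlapped, the change was 0.09 (-0.15 to 0.34), and a rise above 1.26-fold or a fall beyond 1.11-fold was excluded on the deposited scale. With arrays centred it was 0.46 (0.06 to 0.87), near the 0.37 by which centring moved brighter genes in general. That interval lay above 0 and allowed a rise of up to 1.83-fold. Klf4 changed by -2.24 on LIF withdrawal. Esrrb, an orphan nuclear receptor of the same network, changed by -1.91 on withdrawal and differed by 0.07 (-0.30 to 0.45) with lithium. Across the pluripotency list, 29 of 29 tested members were bright, 0 were called and the median change was 0.02. Of the 29, 28 (96.6%) had intervals inside 2-fold, against 94.2% of all brighter named genes. With arrays centred 20 of the 29 (69.0%) were inside 2-fold, against 75.7% of brighter named genes, and the list median was 0.39. Of the same 29 genes, 24 were called lower on LIF withdrawal and 0 higher, against 2546 and 2714 of all 27022 probe sets. Smallest by p in the list, all at an adjusted p of 0.805 or above in limma, were Dppa5a (-0.28), the leukaemia oncogene Tcl1 (0.32) and the DNA demethylation enzyme Tet2 (-0.28).

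**Figure D3:**
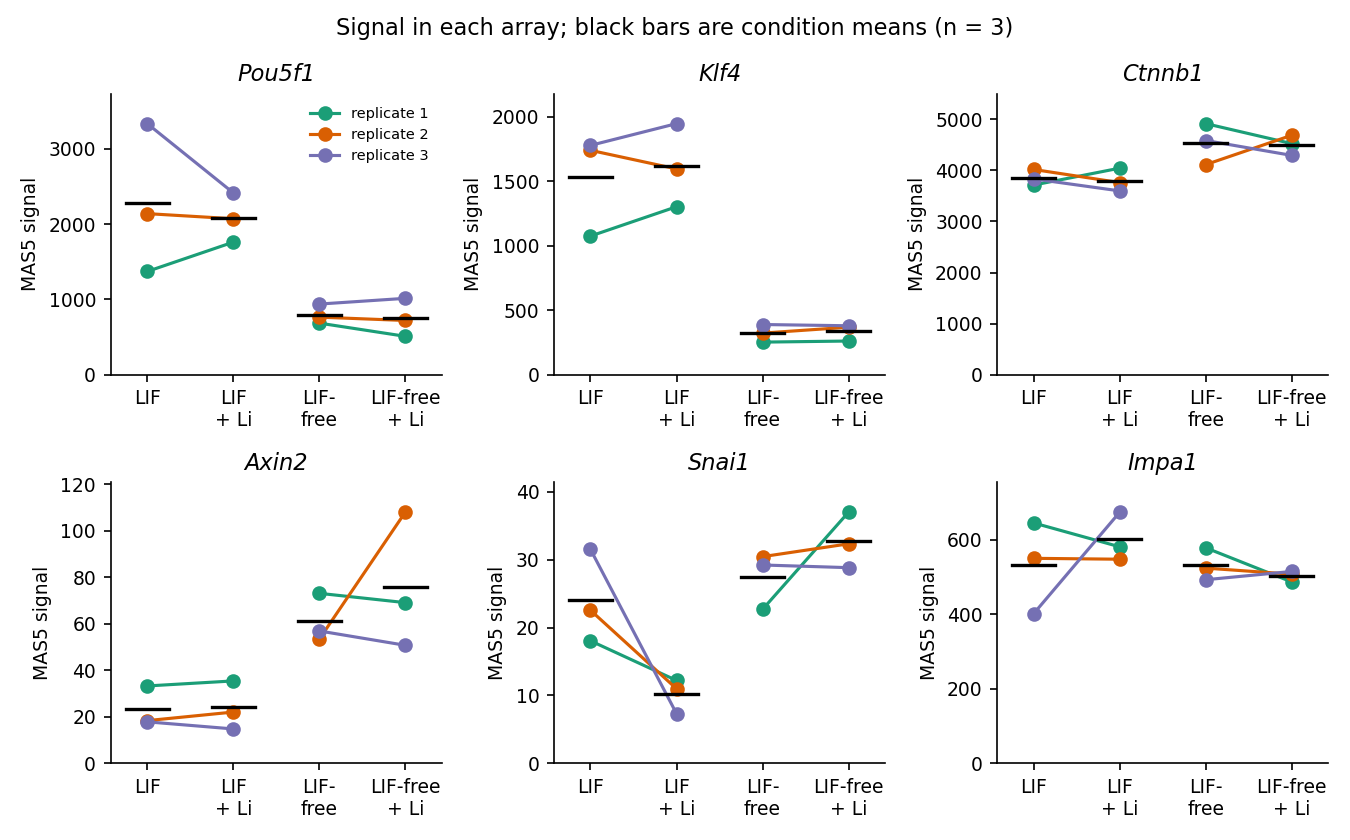
MAS5 signal (y axis) of Pou5f1, Klf4, Ctnnb1, Axin2, Snai1 and Impa1 in each of the 12 arrays, by condition (x axis); lines join arrays of 1 replicate number and black bars are means of 3. Pou5f1 and Klf4 overlap between LIF and LIF plus lithium and are lower without LIF, whereas the dim gene Snai1 is lower in all 3 LIF plus lithium arrays than in any LIF array.

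In the LIF-STAT3 list, Socs3, the feedback inhibitor that STAT3 induces, was at 209, 268 and 573 with LIF and at 219, 264 and 273 with lithium added. Replicate 3 with LIF stood apart, and the other values of the groups overlapped. The change was -0.34 (-0.84 to 0.16), so that a fall beyond 1.79-fold and a rise above 1.11-fold were excluded on the deposited scale. With arrays centred the limit on a rise was 1.41-fold. LIF withdrawal gave -2.13. Of 20 tested members 0 were called and 16 had the interval inside 2-fold, with a median of -0.11. On withdrawal 2 of the 20 were called higher and 7 lower, against 2714 and 2546 of all 27022 probe sets. The smallest p values were those of the receptor-associated kinase Jak1 (0.23), the kinase Pim3 (-0.30) and Socs3.

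Promoter sequence is given for 3 Wnt targets because they are the usual readout of beta-catenin and because TCF and LEF factors bind a short core motif. The 4 motifs CTTTGAA, then CTTTGAT, then CTTTGTA, and last CTTTGTT were searched on both strands in the 250 bases before each gene start in the RefSeq promoter windows of mouse build GRCm38.p6, and 14.8% of 32851 windows held one. Sp5 (chr2:70474673-70474922, plus strand), a zinc finger factor, has a match 222 bases before its start and another at 104. Dkk1 (chr19:30549497-30549746, minus strand), a secreted inhibitor of Wnt receptors, has matches at 117 and 98. Axin2 (chr11:108920099-108920348, plus strand), a scaffold of the destruction complex, has none in this window. Matches are in capitals, sequences run 5′ to 3′ on the gene's strand, and a match is a description of letters and not of binding.
Sp5: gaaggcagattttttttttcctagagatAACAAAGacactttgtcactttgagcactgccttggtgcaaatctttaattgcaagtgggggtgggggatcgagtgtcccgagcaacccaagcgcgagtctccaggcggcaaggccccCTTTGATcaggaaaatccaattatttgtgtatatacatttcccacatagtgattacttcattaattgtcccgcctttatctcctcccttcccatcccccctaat
Dkk1: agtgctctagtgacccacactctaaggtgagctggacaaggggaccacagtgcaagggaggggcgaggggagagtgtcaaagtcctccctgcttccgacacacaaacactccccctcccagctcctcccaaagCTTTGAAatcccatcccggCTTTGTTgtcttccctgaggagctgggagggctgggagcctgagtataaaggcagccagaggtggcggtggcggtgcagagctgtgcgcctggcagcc
Axin2: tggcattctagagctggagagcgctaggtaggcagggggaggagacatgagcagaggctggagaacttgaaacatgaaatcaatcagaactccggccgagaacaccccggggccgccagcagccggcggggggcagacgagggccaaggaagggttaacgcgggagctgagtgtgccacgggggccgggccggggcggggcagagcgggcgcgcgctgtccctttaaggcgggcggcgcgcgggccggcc

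Of the 18 Wnt target genes with a window, 7 held a match (38.9%), against 16.8% of all 27025 genes with one. By window the share was 7 of 26 (26.9%). Among brighter named genes 926 held a match and had a median lithium change of 0.011, and 7059 held none and had a median of 0.0046. At an unadjusted p under 0.05 there were 34 (3.67%) of the former and 229 (3.24%) of the latter, and 0 of either were called.

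Axin2, the most general transcriptional readout of beta-catenin, gave signals of 33.2, 18.3 and 17.8 with LIF and of 35.4, 22.0 and 14.7 with lithium added. Replicate 1 was the highest array in both conditions, and the groups overlapped. The change was 0.03 (-0.60 to 0.65), so a rise above 1.57-fold and a fall beyond 1.51-fold were excluded on the deposited scale. The difference was 0.33 (-0.23 to 0.90) after quantile normalisation and 0.40 (-0.18 to 0.97) with arrays centred, where rises up to 1.86-fold and 1.96-fold remained possible. LIF withdrawal raised Axin2 by 1.45. Sp5 was at 30.6, 19.9 and 2.73 against 23.0, 16.7 and 4.70. The spread between replicates was far larger than that between conditions, and the interval of its change of 0.04 (-1.09 to 1.17) still allowed more than 2-fold either way. Dkk1 was at 93.9, 19.0 and 29.1 against 41.5, 25.9 and 42.0, with LIF replicate 1 standing apart, and its difference was -0.07 (-0.76 to 0.62). LIF withdrawal raised Sp5 by 2.31 and Dkk1 by 2.49.

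Lef1, a transcription factor that is also a target of the pathway, was at 37.0, 14.3 and 7.84 with LIF and at 15.9, 23.9 and 6.05 with lithium added, highest in replicate 1 without and in replicate 2 with lithium. Its change was -0.28 (-0.98 to 0.41). The bright targets had narrower intervals. Ccnd1, which encodes cyclin D1, was at 335, 318 and 188 against 329, 330 and 205, a change of 0.05 (-0.26 to 0.37) that excluded a rise above 1.29-fold. Myc, the growth-promoting transcription factor, had a difference of -0.14 (-0.58 to 0.30), excluding a rise above 1.23-fold. These limits are of the deposited scale, and with arrays centred they were 1.87-fold for Ccnd1 and 1.66-fold for Myc.

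Among 23 tested Wnt targets, 15 of them bright, 0 were called, 11 had intervals inside 2-fold and the median change was -0.16. The median was 0.05 after quantile normalisation and 0.21 with arrays centred on their medians, so its sign rested on the scaling. The same held for most lists: the median was below 0 in 14 of the 19 lists on the deposited scale, in 9 after quantile normalisation and in 0 with arrays centred, where list medians ran from 0.012 to 0.50. Over all 12737 named genes the median was -0.02 and over the brighter ones it was 0.0058. The smallest p values were those of Snai1, of the Wnt-dependent receptor Lgr5 (-1.68) and of the Wnt-inactivating enzyme Notum (-0.62), none of which were called. Lgr5 was at 13.3, 10.8 and 7.68 against 1.25, 5.50 and 4.85, values near background. On LIF withdrawal 10 of the 23 targets were called higher and 0 lower, against 2714 and 2546 of all 27022 probe sets.

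Snai1, a zinc finger repressor of E-cadherin whose protein GSK3 marks for degradation, was the gene of the lists with the smallest p. Its signals were 18.0, 22.5 and 31.5 with LIF and 12.2, 10.97 and 7.31 with lithium added. All 3 lithium values were below all 3 LIF values, and the gap was widest in replicate 3, at -2.11 against -0.56 and -1.04 in replicates 1 and 2. The log2 change was -1.24 (-1.95 to -0.53), which gave an adjusted p of 0.801 in limma with Benjamini-Hochberg adjustment, and from 0.262 to 1.0 over the alternatives in which it was tested. It was -0.88 after quantile normalisation, -0.60 (-0.99 to -0.22) with 16 signal units added before log2, and -0.80 (-1.62 to 0.01) without replicate 3. In LIF-free cultures the lithium change of Snai1 was 0.26, and the interaction had an adjusted p of 0.806. Snai1 had 1 probe set, with a mean signal of 21.3 that is below the brighter class. Non-overlapping values were also found for 474 of the 9732 brighter named genes (4.87%), 225 higher and 249 lower. The share among dimmer genes, the class of Snai1, was not counted. Of those 3005 genes 71.9% were lower with lithium, with a median of -0.25. Under relabelling of 3 arrays against 3, the groups separate fully in 1 direction or the other with a probability of 0.1.

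The lithium targets themselves were measured with different precision. Gsk3a was at 180, 180 and 298 with LIF and at 143, 176 and 210 with lithium added, lower in each pair but overlapping between the groups, a change of -0.29 (-0.70 to 0.13). Gsk3b was at 244, 176 and 92.9 against 205, 174 and 99.0. It differed more between replicates than between conditions, with a difference of -0.06 (-0.46 to 0.34). The 3 other bright probe sets of Gsk3b gave -0.10 to -0.03. Dimmer ones gave -0.25 (-0.84 to 0.35) and -0.82 (-1.57 to -0.08). Ctnnb1, which encodes beta-catenin, was at 3712, 4017 and 3832 against 4043, 3760 and 3597. The groups overlapped, and the change of -0.02 (-0.26 to 0.22) carried the narrowest interval among the genes fixed for naming. On the deposited scale a rise above 1.16-fold or a fall beyond 1.20-fold was excluded. With arrays centred the change was 0.35 (-0.01 to 0.70), and the limit on a rise was 1.63-fold. Tcf7l1, the TCF factor that represses targets in stem cells, had a difference of 0.06 (-0.25 to 0.38).

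Of 28 tested genes for GSK3, the destruction complex and TCF factors, 0 were called and 23 had the interval inside 2-fold, with a median of -0.05. The smallest p belonged to Csnk1d, which encodes casein kinase 1 delta, at 534, 678 and 854 against 497, 449 and 542. It was lower with lithium in each pair, with overlap between the groups. Its change was -0.45 (-0.77 to -0.14, adjusted p = 0.801 in limma), and it was -0.08 with arrays centred on their medians. Amer1, a membrane adaptor of the complex (-0.51), and Btrc, the ubiquitin ligase subunit that recognises beta-catenin (-0.56), came next.

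**Figure D4:**
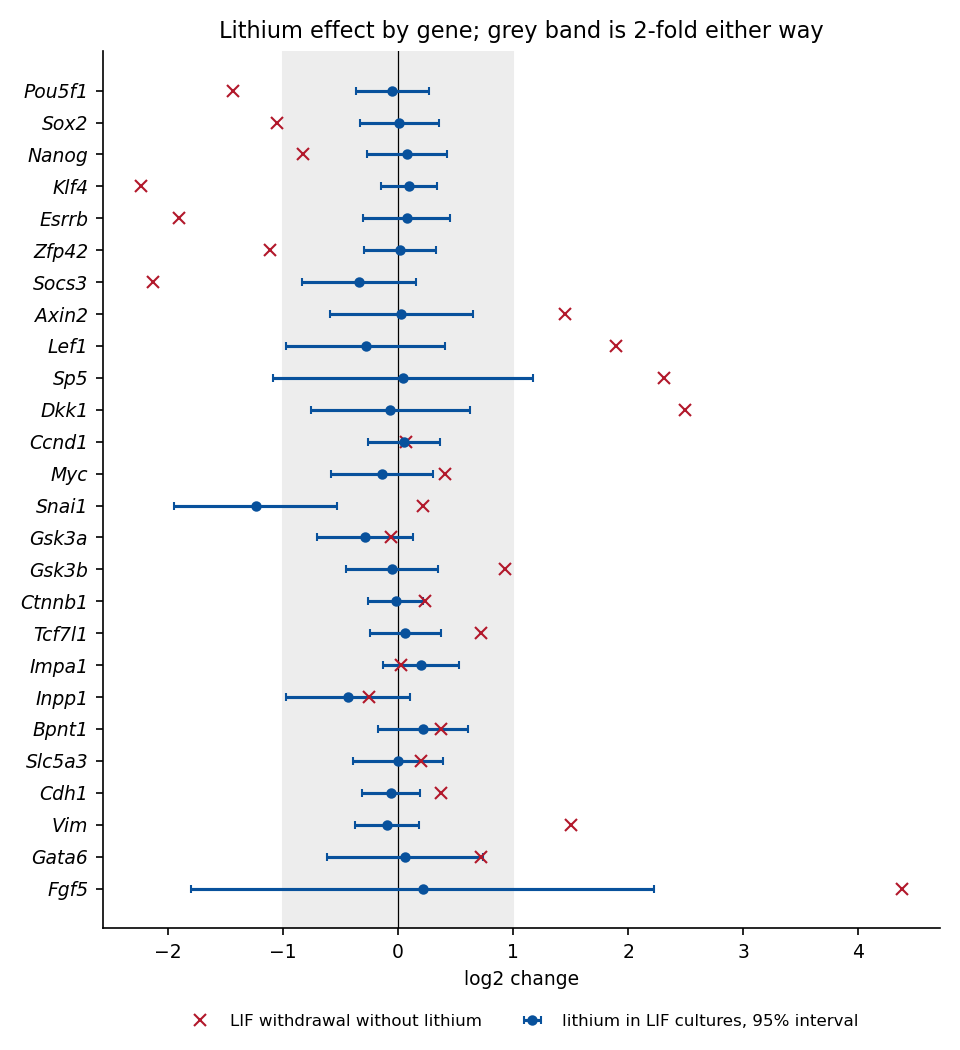
Log2 change with 95% interval for 26 genes in LIF plus lithium against LIF, grouped by role, with a grey band at 2-fold either way and crosses at the LIF withdrawal value, which shares the LIF arrays. Bright genes such as Ctnnb1, Klf4 and Pou5f1 have intervals well inside the band, Fgf5 and Sp5 extend beyond it, and Snai1 lies to the low side.

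The phosphatases that lithium inhibits, and the genes that supply inositol, held no call among 14 tested members, and 13 had the interval inside 2-fold, or 6 with arrays centred. Impa1, inositol monophosphatase, was at 645, 550 and 402 with LIF and at 581, 547 and 674 with lithium added. Replicates 1 and 2 were lower and replicate 3 higher with lithium, and the change was 0.20 (-0.13 to 0.53). A second bright probe set of Impa1 gave 0.34 (-0.06 to 0.74). Inpp1, which removes a phosphate from inositol bisphosphate, was at 41.8, 32.7 and 31.5 against 23.2, 28.7 and 26.3. All lithium values of Inpp1 were below all LIF values, and the change was -0.43 (-0.97 to 0.11). Bpnt1, the bisphosphate nucleotidase, had a difference of 0.22 (-0.17 to 0.61), and Cdipt, which makes phosphatidylinositol, one of 0.31. Slc5a3, the sodium-coupled inositol carrier, was at 102, 140 and 71.2 against 112, 97.4 and 93.0, with an interval of -0.39 to 0.39. Among 7 tested genes of sodium transport and the osmotic response 0 were called and 6 were inside 2-fold. The sodium channel subunit Scnn1a (-0.94), the osmotic factor Nfat5 (-0.37) and the cotransporter Slc12a2 (0.24) ranked first. Tcf7, Impa2 and Isyna1 were not tested.

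Of the epithelial and mesenchymal genes, Cdh1 and Vim were bright and tightly bounded. Cdh1, E-cadherin, was at 2481, 2641 and 2046 with LIF and at 2497, 2349 and 2001 with lithium added. The groups overlapped, and the change of -0.06 (-0.32 to 0.19) excluded a fall beyond 1.25-fold on the deposited scale. Vim, the mesenchymal filament vimentin, was at 954, 536 and 379 against 704, 522 and 431, highest in replicate 1 of both conditions, with a difference of -0.10 (-0.38 to 0.18). Cdh2, N-cadherin, was at 147, 25.2 and 21.9 against 60.9, 17.1 and 8.81. It was lower in each pair while the groups overlapped, with a change of -1.05 (-1.80 to -0.29, adjusted p = 0.801 in limma). In the epithelial-mesenchymal list 0 of 15 were called and 11 were inside 2-fold, with a median of -0.10 and the tight junction gene Cldn3 (-0.36) also among its first 3 by p. On withdrawal 11 of the 15 were called higher and 0 lower, against 2714 and 2546 of all 27022 probe sets.

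Genes of differentiated lineages had wide limits, with median margins of 0.72 in the primed epiblast and streak list, 0.51 in endoderm, 0.55 in trophoblast and 0.84 in the neural list. Fgf5, the marker of primed epiblast, was at 32.6, 4.16 and 1.45 with LIF and at 27.2, 11.2 and 0.737 with lithium added. Replicate 1 was far above the other replicates in both conditions, and its interval of -1.80 to 2.23 was the widest of the genes fixed for naming. Gata6, of primitive endoderm, was at 120, 48.3 and 78.1 against 84.1, 50.7 and 120, a change of 0.06 (-0.62 to 0.73). In the primed epiblast and streak list 0 of 22 were called and 12 were inside 2-fold. The smallest p values were those of Lhx1, a homeobox factor (-2.14), with mean signals of 8.77 and 0.778, of the tight junction gene Cldn6 (-0.41) and of Foxa2 (-0.51). In the endoderm list 0 of 17 were called and 15 were inside 2-fold (6 with arrays centred), with a median of 0.13 (0.50 centred) and Ttr (-0.98), Lamb1 (0.37) and Sparc (0.21) first by p. In the trophoblast and simple epithelium list 0 of 12 were called and 9 were inside 2-fold, with Krt8, Hand1 and Gata3 at -0.18, -0.44 and 0.35. In the neural list 0 of 11 were called and 4 were inside 2-fold, with Ncam1, Map2 and Neurod1 at -0.30, -0.38 and 0.29.

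Markers of cells outside the line showed no call. For fibroblasts and feeder cells 0 of 12 tested genes were called and 5 were inside 2-fold, or 8 under either other scaling. The median was -0.36, with 11 of 12 lower, -0.20 with 9 lower after quantile normalisation, and 0.012 with 6 lower when arrays were centred on their medians. Of the 12 genes, 7 were in the brighter class. Over all 9732 brighter named genes 48.8% were lower, with a median of 0.0058. Over all 3005 dimmer named genes 71.9% were lower, with a median of -0.25. The first by p were the collagen Col3a1 (-1.17), smooth muscle actin Acta2 (-0.39) and the matrix gene Fbln2 (-0.97). For endothelium and blood 0 of 7 were called and 3 were inside 2-fold, or 0 with arrays centred. The VEGF receptor gene Kdr, at 14.01, 14.1 and 16.04 against 1.79, 0.680 and 9.02, did not overlap between the groups and had a change of -2.54, on signals near background. Runx1 (-0.57) and Cdh5 (0.69) followed.

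Lists on growth, metabolism and stress were nearly all bright. All 23 cell cycle genes had the interval inside 2-fold (20 with arrays centred), with a median of -0.02. The replication helicase subunit Mcm2 was at 930, 991 and 698 against 939, 1182 and 1284, overlapping between the groups, with a change of 0.38 (0.04 to 0.73), ahead of the inhibitors Cdkn2a (0.46) and Cdkn1b (-0.34). All 17 genes of glycolysis, glycogen and hypoxia were inside 2-fold (median -0.11), or 14 with arrays centred. They were led by Hk1 (-0.45), Pfkl (-0.43) and glycogen synthase Gys1 (-0.30), whose protein is a classical GSK3 substrate. All 17 genes of cholesterol and fatty acid synthesis were also inside 2-fold (median -0.07), or 16 with arrays centred. The first of them by p were the sterol sensor partner Insig1 (-0.52), Dhcr7 (-0.39) and Sqle (0.18). Of 22 stress, ATF4 and p53 genes 19 were inside 2-fold (median -0.06), with Xbp1, Bbc3 and Psat1 at 0.32, -0.51 and 0.24. Of 15 FGF-ERK feedback genes 12 were inside (median 0.04), with Fgfr1, Dusp4 and Fgf4 at -0.50, 0.43 and 0.21. Of 12 BMP and Id targets 9 were inside (median -0.22, and 0.14 with arrays centred), with Id4, Id1 and Id2 at 0.29, -0.31 and -0.26. The 19 lists held 315 tested genes, of which 0 were called by limma, with a smallest adjusted p of 0.801, and 13 (4.13%) had an unadjusted p under 0.05. Of their 266 brighter members, 240 (90.2%) had intervals inside 2-fold, and 7 had an unadjusted p under 0.05. Among all brighter named genes 340 (3.49%) reached that unadjusted level.

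With no call to name, the genes that ranked first were read by the smallest unadjusted p among brighter genes whose 3 pairs all differed in the same direction. Of 9732 brighter named genes, 1128 were higher and 976 lower in all 3 pairs. Some genes agree in 3 pairs without any effect, and these counts were not tested. Map3k12, a kinase upstream of JNK, ranked first among those lower. Its signals were 128, 94.6 and 106 with LIF and 77.2, 48.7 and 38.5 with lithium added, with no overlap. The change was -1.05 (-1.42 to -0.69, adjusted p = 0.363 in limma). In LIF-free cultures the difference for Map3k12 was 0.16, with an adjusted p of 0.806 for the interaction. Another bright probe set of Map3k12 gave -0.43. Nrp1, a co-receptor for semaphorins and VEGF, was at 85.5, 16.6 and 10.4 against 22.4, 7.58 and 2.84. It was lower in each pair while the groups overlapped, at -1.65 (-2.26 to -1.03, adjusted p = 0.383 in limma), and at 0.45 in LIF-free cultures.

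The other 8 genes lower in all pairs had an adjusted p of 0.801. They were the phosphatase gene Ptpdc1 (-1.07), the autophagy inhibitor Rubcn (-0.99), the nuclear receptor coactivator Ncoa3 (-0.73), the deacetylase Sirt6 (-0.94), the imprinted Dlk1 (-1.46), the Golgi subunit Cog5 (-0.84), the Ras regulator Rasal2 (-0.66) and the netrin receptor Unc5c (-1.25). Ptpdc1 was at 38.8, 39.6 and 33.6 against 20.003, 16.3 and 17.2, well apart, yet its other bright probe set gave -0.11. A second bright probe set of Ncoa3 gave 0.18, of opposite sign. Nrp1, Ptpdc1, Dlk1 and Unc5c were not in the brighter class when brightness was taken from the 6 compared arrays alone. The 10 values ran from -1.65 to -0.66 on the deposited scale, from -1.25 to -0.56 after quantile normalisation and from -1.28 to -0.30 with arrays centred, where Ncoa3, Cog5 and Rasal2 were at -0.36, -0.47 and -0.30.

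The 10 genes higher in all pairs had differences of 0.36 to 0.92 on the deposited scale, of 0.33 to 1.19 after quantile normalisation and of 0.73 to 1.29 with arrays centred. Rbm12, an RNA-binding protein, was at 317, 349 and 274 with LIF and at 352, 585 and 370 with lithium added, without overlap. Its change was 0.44 (0.17 to 0.72, adjusted p = 0.801 in limma), and its other bright probe sets gave 0.04 and 0.43. Atp6v1c1, a subunit of the proton pump of lysosomes, was at 1129, 1408 and 1001 against 1249, 1802 and 2007, higher in each pair with overlapping groups. Its change was 0.50 (0.18 to 0.83), and its other bright probe sets gave 0.27 and 0.30. The remainder were Mtmr10 (0.62), Rps6kc1 (0.92, also not brighter by the 6 compared arrays), the glycan-removing enzyme Ngly1 (0.45), the mitochondrial RNA regulator Lrpprc (0.42), the microtubule protein Map4 (0.41), Adnp2 (0.39), Lyplal1 (0.36) and Cttnbp2nl (0.44). Other bright probe sets of Adnp2 and Cttnbp2nl gave -0.09 and -0.13, and those of Map4 gave 0.15 and -0.91.

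**Figure D5:**
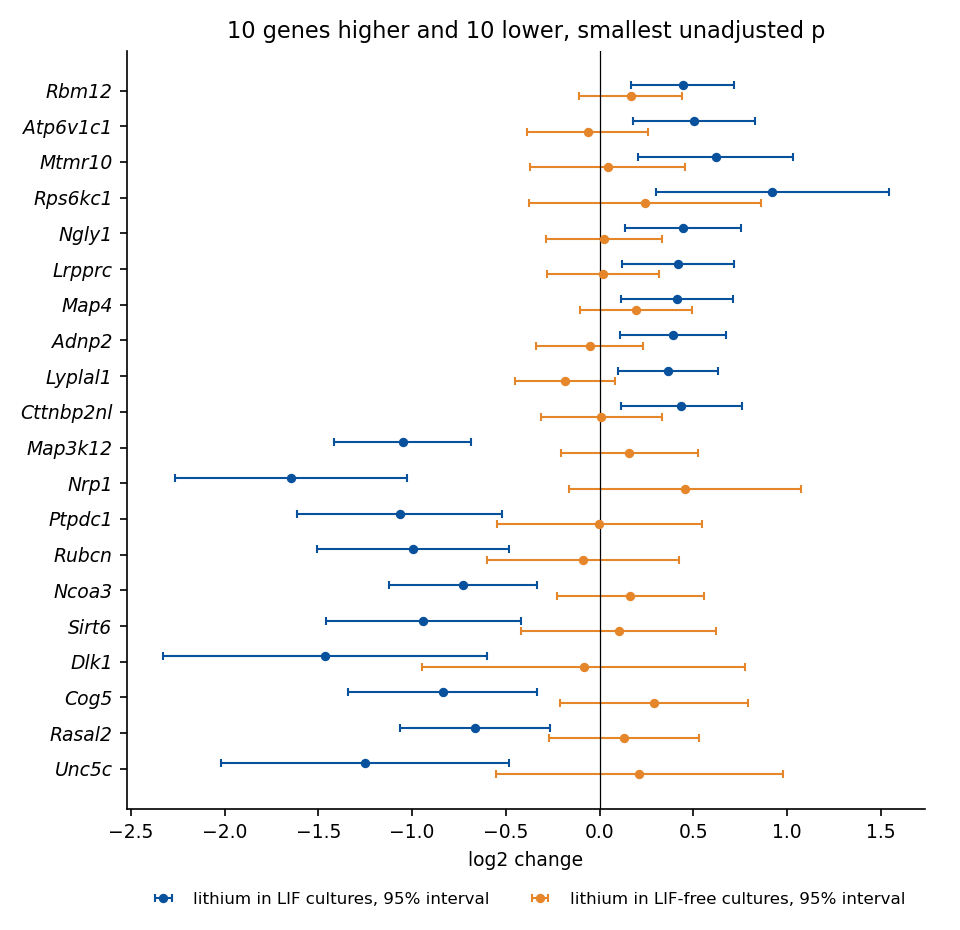
Log2 lithium change with 95% interval of the 20 brighter genes ranked first, in LIF cultures (blue) and in LIF-free cultures (orange); the blue values chose the genes. In LIF-free cultures, 7 of the 10 genes ranked as higher were above 0 and 3 of the 10 ranked as lower were below 0.

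The LIF-free arrays, which the lithium comparison in LIF did not use for its difference, gave these genes small values. Of the 10 genes ranked as higher, 7 were higher with lithium in LIF-free cultures, with a median of 0.02. Of the 10 ranked as lower, 3 were lower there, with a median of 0.14. Among all brighter named genes 46.5% of those higher in LIF cultures were higher in LIF-free cultures too, and 43.9% of those lower were lower in both.

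Large estimates were few among brighter genes. On the deposited scale the middle 90% of their changes ran from -0.41 to 0.27. On that scale 14 genes had an estimate beyond 2-fold, all lower with lithium. They were led by the apelin receptor Aplnr (-2.25), Nrp1, Dlk1 and Unc5c. Of the 14, 6 (these 4, Ptpdc1 and Tshz1) were not in the brighter class by the 6 compared arrays alone: Aplnr averaged 29.2 with LIF, 9.31 with lithium added and 297 without LIF. When brightness was taken from the 6 compared arrays alone, a choice made after seeing the data, 9138 of 9710 genes (94.1%) had intervals inside 2-fold and 9 had estimates beyond 2-fold, 8 lower and 1 higher (1.11). The largest estimate of a rise in the main class was Tcl1b3, of the Tcl1 cluster, at 0.99. The number and direction of estimates beyond 2-fold rested on the scaling. With arrays centred Map3k12, Ptpdc1 and Cdh2, all among the 14, were at -0.68, -0.70 and -0.68. Nrp1 and Dlk1 stayed beyond 2-fold at -1.28 and -1.10, and Rps6kc1 lay beyond it as a rise, at 1.29. The smallest p of all probe sets belonged to a secondary set of Ywhaz, which encodes a 14-3-3 protein and was singled out after its values were seen. It was at 678, 450 and 600 with LIF and at 387, 262 and 328 with lithium added, without overlap. The change was -0.82 (-1.09 to -0.55, adjusted p = 0.363 in limma). All 7 tested sets of Ywhaz were lower, from -0.82 to -0.09, and 1 of the 7 had an unadjusted p under 0.05.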

How the data were processed

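Gene expression was measured on 12 Affymetrix mouse arrays, 3 per condition. The deposited values are linear MAS5 signal intensities that the authors computed with MAS5, per the submitters' processing notes, with version and settings not given in the sources used here. Each array's mean without its extreme 2% of values was 99.96 to 99.966. The table holds 45101 probe sets, and the 64 Affymetrix controls were not used. A floor of 1 was applied (0.146% of the values tested) before log2 was taken. Probe sets with a mean log2 above the 40th percentile (a signal of 7.52) were tested. Gene symbols came from the platform annotation: 34945 probe sets carry a single symbol (1), while 932 carry several and 9160 carry none. By gene ID, 34741 matched a reference table, and 0 symbols changed. A gene is its brightest tested probe set, with _x_at sets used only where it had no other.

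Condition and replicate number were the terms of a linear model over the 12 arrays in limma (version 3.58.1, under R version 4.3.3), with eBayes, an intensity trend and 6 residual degrees of freedom. Tests were two-sided, with Benjamini-Hochberg adjustment across 27022 probe sets and a threshold of 0.05. Intervals of 95% come from the same fit. With 3 arrays against 3, label permutation cannot go under 0.1. Residuals of same-numbered LIF and LIF plus lithium arrays correlated at 0.499, 0.139 and 0.321, and the pairing rests on this check and on the numbers in the titles. The code was tested on simulated data.

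The members and the gene lists were chosen with earlier results of these data known. Genes named are a fixed set of markers and pathway genes and the 3 members of each list with the smallest p. Since none was called, they also include the 10 brighter genes in each direction with the smallest unadjusted p and all 3 pairs in that direction. Symbols of unnamed clones were passed over, 1 in each direction. Alternatives changed the pairing, arrays, scaling, floor, filter, variance model, array weights and probe set choice.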

Additional observations from a re-analysis of the deposited data

How the results depend on the processing

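The number of probe sets called for lithium in LIF cultures was 0 in 24 of 25 alternatives and 3 without LIF plus lithium replicate 1, so leaving out arrays gave 0 to 3 calls. Those 3 were Tcl1b3 (1.57, adjusted p = 0.0389 in limma), Insyn2a (-3.57, 0.0429) and a probe set with no symbol (-3.38, 0.0389). The counts for lithium in LIF-free cultures and for the interaction were 0 in every alternative run. Without the replicate block (unpaired) there were 0 calls, 8720 brighter named genes (89.6%) had intervals inside 2-fold and the median margin of brighter probe sets was 0.48 in place of 0.39. The block changed no call for lithium, but LIF withdrawal had 2515 calls without it in place of 5260. Leaving out arrays moved that margin from 0.38 to 0.54 and the genes inside 2-fold from 7861 (80.8%), without replicate 2, to 9215. Withdrawal had 1315 calls without replicate 2. The number of brighter named genes inside 1.5-fold was less stable than that inside 2-fold. It was 6160 in the main fit, 4693 without the block, 2761 without replicate 2, 746 with arrays centred and 7761 with 16 signal units added. Centring each array on its median left 7371 genes (75.7%) inside 2-fold, and 9159 (94.1%) when changes were taken relative to the shift of 0.37 that it gave the brighter named genes; quantile normalisation gave 9317 and an added 16 signal units 9643. Of 1124 values of the 45 named genes, 78 had the other sign, and 0 genes were called in any alternative. The sign was kept throughout by 24 genes. They include all 10 genes ranked as higher and all 10 ranked as lower. Those were chosen from these same arrays by agreement of all pairs and small p, which largely fixed their sign in advance. Of the genes fixed for naming whatever their values, only Bpnt1, Inpp1, Klf4 and Snai1 kept their sign. The number of arrays and, for dim probe sets, the signal over background limit the precision.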
